A study of Mus musculus with 2 samples.

Results

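The transcription factor p53 and 9 of its classical target genes were examined in regulatory T cells (Tregs) from the spleen and lung of mice given bleomycin (BLM). The members were Trp53, which encodes p53, and Cdkn1a, Mdm2, Ccng1, Bax, Bbc3, Phlda3, Trp53inp1, Sesn2 and Gdf15. They were chosen by symbol, and all 10 were found among the 24346 symbols listed for both libraries. The libraries came from Foxp3-DTR-GFP (FDG) mice, in which GFP is produced from the endogenous Foxp3 locus, so that GFP marks cells with an active Foxp3 gene. Mice aged 10 to 16 weeks and matched for age and sex received 50 μg of BLM, a chemotherapeutic that breaks DNA, into the trachea, and GFP+CD4+ cells were sorted on day 15. The cells of 3 mice were pooled into 1 splenic library and 1 lung library. Both groups carried the reporter and both had received BLM, and no library of untreated mice was analysed here, so the comparison is between tissues and not between BLM and its absence. With 1 library per tissue there is no replicate check of any difference, and no p-value is given.

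p53 is held at a low level in unstressed cells by Mdm2, a ubiquitin ligase that marks it for degradation and is itself a p53 target. DNA breaks activate kinases that release p53 from Mdm2, after which p53 binds DNA at pairs of a degenerate 10-base unit, the p53 half-site, and raises transcription of its targets. The control acts mainly on the protein, so the level of Trp53 mRNA is not a measure of p53 activity, and most target genes also have other activators. In T cells, p53 restrains division and favours death after DNA damage.

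Promoter sequences were read to show what lies at the starts of the genes before their expression is described. RefSeq promoter windows, from 250 bases before to 50 bases after a transcription start (GRCm38.p6), were at hand for 9 members in 13 windows, and Trp53inp1 was without a window. The half-site, searched by its standard degenerate form, which reads the same on both strands, lay in 5 of the 13 windows and in 8.36% of 32851 windows of the genome. The 5 windows belonged to Cdkn1a, Ccng1, Bax, Mdm2 and Trp53 itself, and each matched stretch is printed 5′ to 3′ on the strand of its gene with matches in capitals. The Cdkn1a stretch spans chr17:29090729-29090975 on the plus strand and ends at the base before the gene's first base in GENCODE, 29090976, whereas distances to the start are counted from the RefSeq start, a few bases further on. The Ccng1 stretch spans chr11:40755452-40755491 on the minus strand, Bax chr7:45467080-45467109 on the minus strand, Mdm2 chr10:117710925-117710954 on the minus strand and Trp53 chr11:69580274-69580303 on the plus strand.
Cdkn1a: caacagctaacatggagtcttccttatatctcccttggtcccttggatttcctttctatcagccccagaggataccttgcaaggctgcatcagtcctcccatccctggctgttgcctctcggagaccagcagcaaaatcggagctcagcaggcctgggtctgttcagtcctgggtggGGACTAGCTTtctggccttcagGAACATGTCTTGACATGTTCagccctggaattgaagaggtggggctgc
Ccng1: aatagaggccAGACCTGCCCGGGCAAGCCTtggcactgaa
Bax: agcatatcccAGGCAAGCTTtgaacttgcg
Mdm2: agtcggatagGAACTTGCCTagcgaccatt
Trp53: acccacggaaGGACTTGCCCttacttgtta

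Cdkn1a had 2 half-sites separated by no more than 13 bases, an arrangement found in 24 of all windows (0.0731%) and in no other window of a member. A search for 20 bases that fit 2 abutting half-sites with at most 1 letter off was added after the expression values had been seen. Such a run lay in 29 windows (0.0883%), of which 2 belonged to members, and it is the capital run nearest the start in Cdkn1a and the whole capital run in Ccng1. It lay at bases -51 to -32 from the upstream of 2 RefSeq starts of Cdkn1a and at bases -195 to -176 from the start of Ccng1. The window at the other Cdkn1a start, 2790 bases downstream, held 0 half-sites. The 2 genes that share such a run stood apart in expression, since Cdkn1a was 21.5-fold higher in the lung library and Ccng1 1.29-fold lower. The 4-base core CATG alone lay in 5 of the 13 windows and in 61.1% of all windows. A match is a description of letters and not a bound site, and the absence of one says only that these letters are not in the window.

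The authors deposited 1 value per gene symbol in FPKM, the number of sequenced fragments corrected for the length of the transcript and the size of the library. Their sums were 599633 for spleen and 808853 for lung, and 9542 and 10638 symbols were listed at 0. Low values moved in steps of whole reads, from which 9647746 and 12633124 reads were estimated over the symbols with a known transcript length. Foxp3 stood at 18.7 FPKM in spleen and 41.8 FPKM in lung, Cd4 at 195 and 179 FPKM, and Cd3e at 513 and 369 FPKM, so the defining genes of the sorted cells were present in both. The sum of 6 T cell markers was 3155 and 2945 FPKM with 0 of 6 past 2-fold, and that of 6 Treg markers was 911 and 1693 FPKM with 2 of 6 higher and 1 lower in lung. Markers of other cell types were present too. The summed level of 10 macrophage markers was 550 FPKM in spleen against 26705 FPKM in lung, with 7 of 10 more than 2-fold higher in lung, and was 174 and 1758 FPKM without Lyz2. The sum of 5 neutrophil markers was 425 and 1200 FPKM, with 3 of 5 higher. The sum of 6 lung epithelial markers was 12.8 and 3122 FPKM, with 4 of 6 higher, Epcam lower at 8.75 and 1.79 FPKM, Sftpc and Sftpb at 0 in spleen, and Scgb1a1 alone at 3021 FPKM in lung. That of 6 fibroblast markers was 0.290 and 47.2 FPKM, with 5 of 6 higher and Col3a1, Pdgfra and Lum at 0 in spleen. The sum of 5 endothelial markers was 55.0 and 38.8 FPKM, with 3 of 5 higher, Cdh5 and Tek at 0 in spleen and Kdr at 0 in lung. The splenic library had more of 5 B cell markers, at 239 and 123 FPKM with 3 of 5 lower in lung, and of 6 genes of the exocrine pancreas, at 160 and 3.18 FPKM with all 6 lower in lung and Clps, Cela2a, Cel and Pnlip at 0 there. The part of these cells in the values of the p53 target genes was not tested. In bulk RNA, more cells of a type and more RNA per cell cannot be told apart.

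A gene was counted as higher or lower when its lung FPKM, divided by its splenic FPKM, was above 2 or under 1/2, with values under 0.1 FPKM set to 0.1. No member was under that floor. Of the 10 members, 4 were higher in the lung library (Cdkn1a, Gdf15, Sesn2 and Phlda3), 1 was lower (Bbc3), and 5 lay between (Trp53, Mdm2, Ccng1, Bax and Trp53inp1). Of the 12094 genes that reached 1 FPKM in either library, 17.8% were higher and 15.5% lower by the same rule. The members' counts were the same at 1.5-fold, against 27.4% of those genes higher and 25.4% lower. At 4-fold, Cdkn1a and Gdf15 were higher and 0 members were lower, against 10% and 7%. The median log2 ratio of the members was 0.31, against 0.031 over those genes, and it was -0.12 when both libraries were rescaled to TPM, in which each library has the same sum, a step that moved the median of all genes by -0.43. The median was 0.063 without Cdkn1a, as it would be without any other single member whose ratio was above the median. The members therefore had no common direction, and they are described by role.

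**Figure D1:**
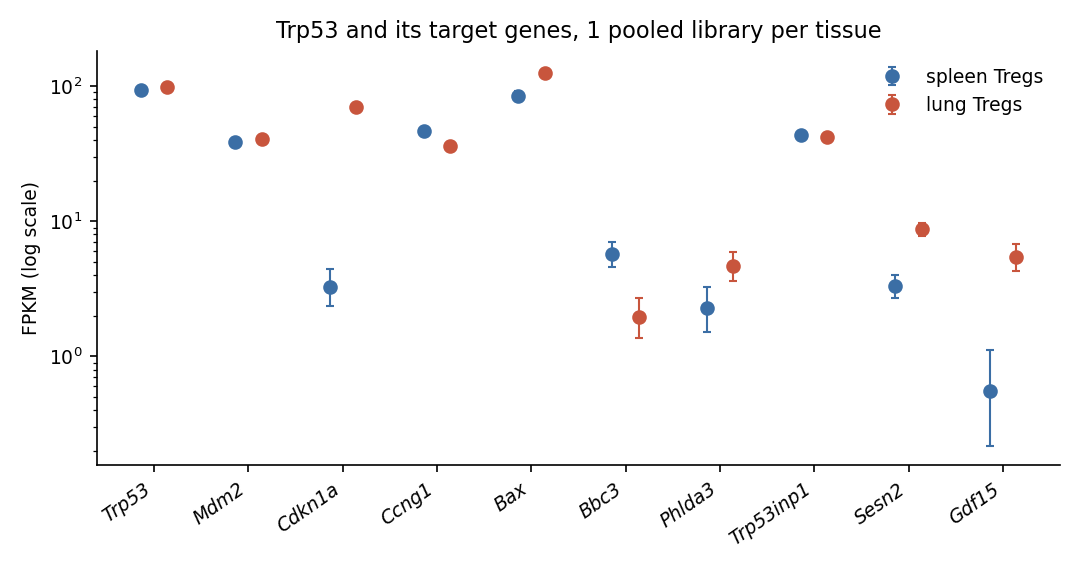
Level of each member in the 2 libraries, in FPKM on a log scale, with 95% counting intervals from the estimated reads and 1 pooled library per tissue. Cdkn1a goes from 3.29 FPKM in spleen to 70.7 FPKM in lung and Gdf15 from 0.551 to 5.43 FPKM, while Trp53, Mdm2 and Trp53inp1 have almost the same level in both.

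Trp53, on chromosome 11 from 69580359 to 69591873 on the plus strand (GRCm38, 11 exons), stood at 93.6 FPKM in the splenic library and 97.8 FPKM in the lung library. The 2 levels were nearly equal, with a ratio of 1.04 and a 95% counting interval from 0.976 to 1.12. The interval rests on about 1563 and 1854 estimated reads, and like all intervals given here it covers counting error only. The variation between mice is not in it, and whether PCR copies of a molecule were counted separately is not stated. Trp53 was the member with the highest level in spleen. The annotation holds a processed pseudogene, Trp53-ps, on chromosome 17, which is not listed in these values, and whether reads shared with it were counted for Trp53 is not known.

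Mdm2, the ligase that degrades p53, lies on chromosome 10 from 117688875 to 117710758 on the minus strand and has 12 exons. It stood at 39.0 FPKM in spleen and 40.5 FPKM in lung, a ratio of 1.04 (95% counting interval 0.961 to 1.12). In FPKM as deposited, the mRNA levels of Trp53 and Mdm2 thus differed between the libraries by less than the counting error. The sign of these small differences depended on the scale, since the log2 ratios of 0.063 for Trp53 and 0.056 for Mdm2 became -0.37 for Trp53 and -0.38 for Mdm2 after rescaling to TPM and -0.11 and -0.12 after rescaling to equal upper quartiles.

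Among the genes of cell cycle arrest, Cdkn1a encodes the inhibitor of cyclin-dependent kinases p21, which stops cells before they copy their DNA. It lies on chromosome 17 from 29090976 to 29100727 on the plus strand and has 3 exons. Its level was 3.29 FPKM in the splenic library and 70.7 FPKM in the lung library. The lung level was 21.5-fold higher (95% counting interval 15.8 to 30.3), which is 4.43 on the log2 scale. Cdkn1a moved from place 9120 to place 1673 when the 24346 symbols were ordered by level. It was the only member above 20-fold, the threshold used in the study, and 3.27% of the 12094 genes exceeded 20-fold in that direction and 2.35% in the other. Among the 5970 genes whose higher level was 10 to 100 FPKM, 1.52% had a ratio at or above that of Cdkn1a.

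The depth behind Cdkn1a was uneven. Its 2 transcripts tied to RefSeq measure 922 and 1913 nt, so that the splenic level corresponded to 24.3 to 58.1 reads and the lung level to 594 to 1419 reads. Across the floors, pseudocounts and scales tried, the log2 ratio ranged from 3.996 to 4.65, and the fold stayed above 2 in all 9 of them, but it was under 20 with a pseudocount of 1 FPKM, with TPM and with equal upper quartiles. A transcript model of unknown type on the opposite strand, AC167363.2, overlaps an exon of Cdkn1a, and without strand its reads cannot be told apart from those of Cdkn1a. The summed levels of the macrophage, neutrophil, epithelial and fibroblast markers given above were higher in the same library. Not every single marker was, and Epcam was lower. The part of these cells in the Cdkn1a level was not tested.

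Ccng1 encodes cyclin G1, a p53 target that brings a phosphatase to Mdm2. The gene lies on chromosome 11 from 40748552 to 40755311 on the minus strand and has 6 exons. It stood at 47.0 FPKM in spleen and 36.4 FPKM in lung. This was 1.29-fold lower in lung (95% counting interval 1.20 to 1.39), a difference beyond counting error but within 2-fold, and 32.3% of genes of its level had a ratio at or below it. The 2 arrest members thus differed in direction, by 4.43 and -0.37 on the log2 scale. Ccng1 kept its sign in all 9 settings, with log2 ratios from -0.80 to -0.14. The floors and a minimum of 3 estimated reads could not move either gene, since their levels lay above them.

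The apoptotic members also differed among themselves. Bax, the protein that opens the outer membrane of mitochondria, is encoded on chromosome 7 from 45461697 to 45466898 on the minus strand by 6 exons. Its level was 84.7 FPKM in spleen and 125 FPKM in lung, 1.47-fold higher in lung (95% counting interval 1.33 to 1.63). The log2 ratio of Bax, 0.56, became 0.13 after rescaling to TPM. Bax was the member with the highest level in the lung library. A second protein-coding model on the same strand, Gm45808, overlaps an exon of Bax and is not listed in these values, so its reads may be counted with Bax.

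Bbc3 encodes Puma, a BH3-only protein that triggers apoptosis by binding the protective members of the Bcl2 family. It lies on chromosome 7 from 16308393 to 16318205 on the plus strand and has 4 exons. Bbc3 stood at 5.73 FPKM in spleen and 1.97 FPKM in lung, 2.91-fold lower in lung (95% counting interval 1.97 to 4.39). It was the only member counted as lower, and it was under 1/2 in all 9 settings. The floors and a minimum of 3 estimated reads could not move it, since both its levels lay above them. The values rest on about 95.4 and 37.2 reads, and 18.1% of the 4815 genes whose higher level was 1 to 10 FPKM had a ratio at or below it.

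Phlda3 encodes a protein that competes with the kinase Akt for membrane lipids and so lowers survival signals. It lies on chromosome 1 from 135766119 to 135769136 on the plus strand and has 2 exons. Its level was 2.30 FPKM in spleen and 4.66 FPKM in lung. The ratio of 2.03 (95% counting interval 1.30 to 3.26) was just above the threshold on about 29.2 and 67.2 reads, and it was above 2 in 5 of 9 other settings. These 5 include the floors and a minimum of 3 estimated reads, which could not move it, since both its levels lay above them. Trp53inp1, a cofactor that promotes phosphorylation of p53, lies on chromosome 4 from 11156431 to 11174379 on the plus strand and has 4 exons. It stood at 43.5 FPKM in spleen and 42.3 FPKM in lung, a ratio of 0.972 (95% counting interval 0.919 to 1.03) that did not differ from 1 beyond counting error. Its log2 ratio of -0.041 became -0.47 after rescaling to TPM and -0.22 with equal upper quartiles. It was 0.19 when the libraries were rescaled on 6 T cell genes.

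Both members of the wider stress response were higher in the lung library. Sesn2 encodes a sestrin, which lowers mTORC1 signalling when amino acids are scarce, and lies on chromosome 4 from 132492032 to 132510501 on the minus strand with 10 exons. It stood at 3.31 FPKM in spleen and 8.75 FPKM in lung. The ratio was 2.64 (95% counting interval 2.13 to 3.30) on about 112 and 336 reads, and 21.97% of genes of its level had a ratio at or above it. After rescaling to TPM its log2 ratio was 0.97, just under the threshold.

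Gdf15 encodes a secreted cytokine of the TGF-beta superfamily that many stressed cells release, and lies on chromosome 8 from 70629393 to 70632456 on the minus strand. It stood at 0.551 FPKM in spleen and 5.43 FPKM in lung, 9.86-fold higher in lung. The splenic value rests on about 7.16 reads and the lung value on about 80.2, so the 95% counting interval ran from 4.67 to 25.8. Among genes of its level, 11.1% had a ratio at or above that of Gdf15. As for Cdkn1a, the summed markers of macrophages, epithelium and fibroblasts were higher in the same library, though Epcam was lower. The part of these cells in this value was not tested.

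**Figure D2:**
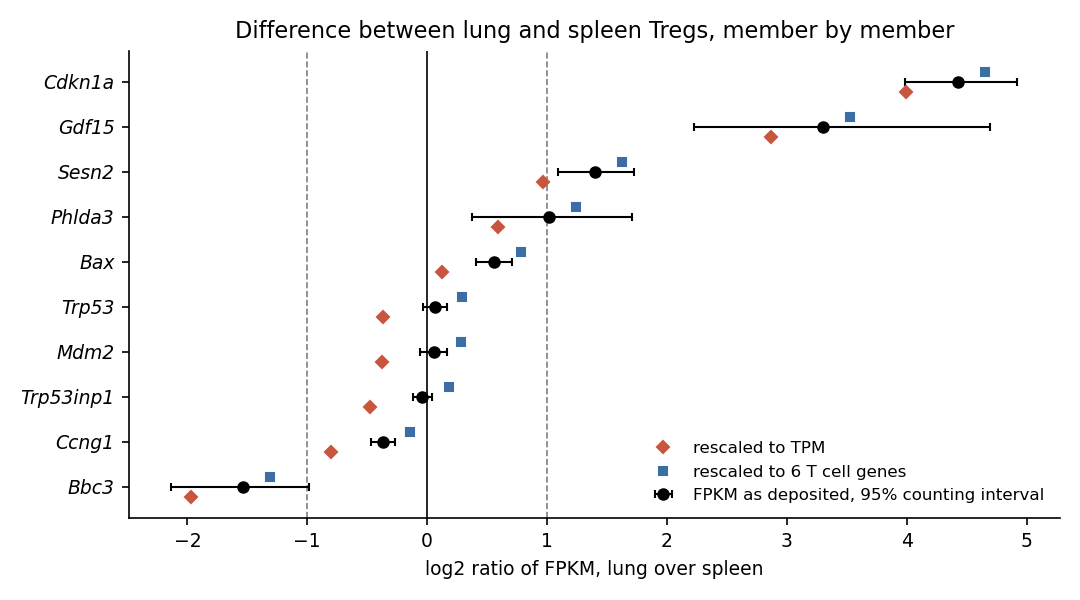
Log2 ratio of lung to spleen for each member with 95% counting intervals, which cover counting error only. Cdkn1a at 4.43 and Gdf15 at 3.30 are far to the right, Bbc3 at -1.54 is the only member under -1, and Trp53, Mdm2 and Trp53inp1 sit at about 0.

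The order of the levels changed around Cdkn1a and Bbc3. In spleen the members fell into a high group from Trp53 through Bax, Ccng1 and Trp53inp1 to Mdm2, between 93.6 and 39.0 FPKM, and a low group from Bbc3 through Sesn2, Cdkn1a and Phlda3 to Gdf15, between 5.73 and 0.551 FPKM. In lung the order was Bax, Trp53, Cdkn1a, Trp53inp1, Mdm2, Ccng1, Sesn2, Gdf15, Phlda3 and Bbc3. Cdkn1a was thus the member that passed from the low to the high group, and Bbc3 went from the head of the low group to its end. Neighbours whose counting intervals overlapped were Trp53 and Bax, Ccng1 and Trp53inp1, Sesn2 and Cdkn1a, and Cdkn1a and Phlda3 in spleen, and Trp53inp1 and Mdm2, and Gdf15 and Phlda3 in lung. The 10 members summed to 323 FPKM in spleen and to 433 FPKM in lung. At least 1 FPKM was reached by 9 of them in spleen and all 10 in lung.

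How often a ratio above 2 arose depended on the level. Among genes whose higher level was 1 to 10 FPKM, 27.0% were higher and 25% lower in lung, and Bbc3, Phlda3, Sesn2 and Gdf15 belonged to this class. Among genes at 10 to 100 FPKM, 10.5% were higher and 10.4% lower, and Cdkn1a was the only one of its 5 members there, with Trp53, Mdm2, Ccng1 and Trp53inp1, to pass 2-fold. Bax was in the class at 100 FPKM or more, of which 17.1% were higher and 3.28% lower.

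**Figure D3:**
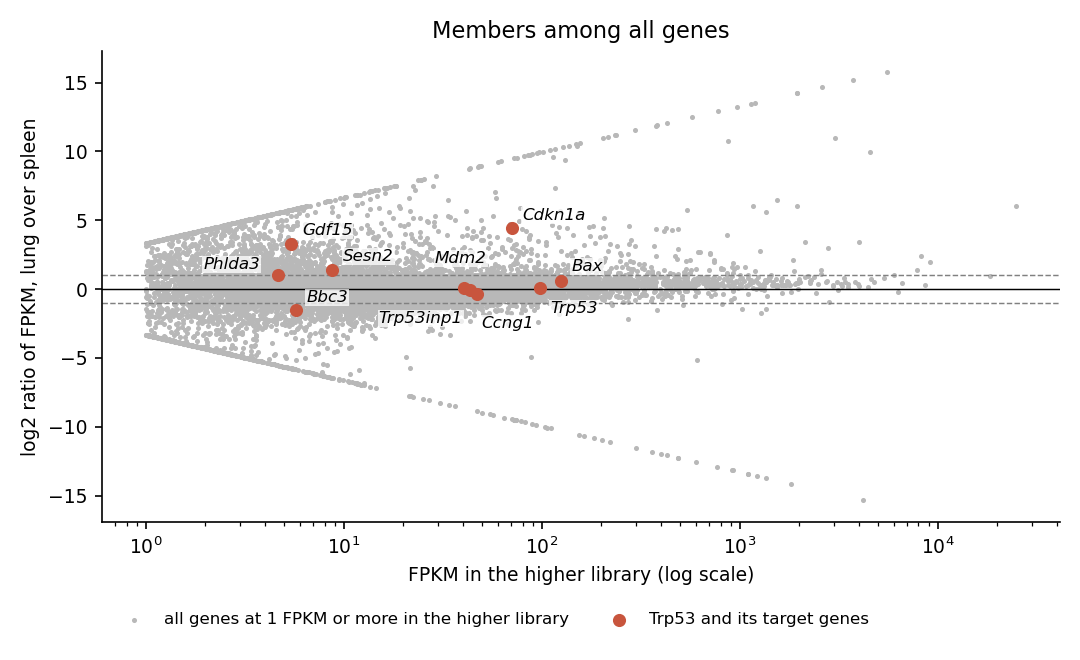
Log2 ratio of lung to spleen against the FPKM of the higher library (log scale) for the 12094 genes that reached 1 FPKM, in grey, and for the 10 members, in red. Dashed lines mark 2-fold, Cdkn1a lies above the bulk of the genes of its level at 4.43, and Bbc3, Phlda3 and Sesn2 lie within the cloud of low genes.

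The ratios of all genes also moved with transcript length. The median log2 ratio was 0.51 for genes with transcripts under 1 kb, 0.27 for 1 to 2 kb, -0.06 for 2 to 4 kb, -0.19 for 4 to 6 kb and -0.27 for 6 kb or more. Relative to the median of genes of like length, Cdkn1a remained 4.16 higher on the log2 scale, Gdf15 3.03, Sesn2 1.46 and Phlda3 0.75. Bax, with a transcript of 867 nt, differed by 0.05 from the short genes, although its own ratio was 0.56. Bbc3 was lower by more when set beside its length class, at -1.81. The part of length in the single values was not tested.

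**Figure D4:**
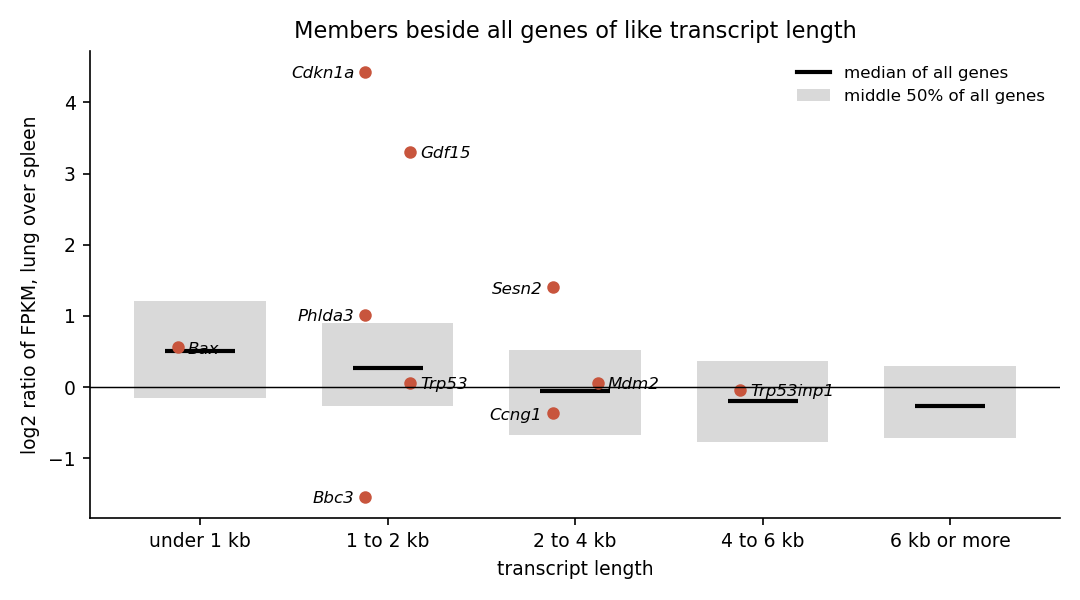
Log2 ratio of lung to spleen by transcript length for all genes that reached 1 FPKM in either library (black bar, median, and grey box, middle 50%) and for the members (red). Cdkn1a and Gdf15 lie above the box of the 1 to 2 kb class, Bbc3 lies under it, and Bax lies on the median of the class under 1 kb.

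A further 62 genes of the pathway were examined as lists. Of these, 10 were higher in lung, 10 lower and 42 between, where 11.0% and 11.7% of all 24346 symbols were higher and lower. Of the 50 that reached 1 FPKM in either library, 9 (18%) were higher and 8 (16%) lower, against 17.8% and 15.5% of all such genes, and their median log2 ratio was -0.034. These shares were near those of all genes. With both libraries rescaled to TPM, 5 of the 62 were higher and 15 lower.

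Among 17 regulators of p53, 1 was higher, 5 were lower and 11 lay between. Chek2, a kinase activated by DNA breaks, was at 2.70 FPKM in spleen and 6.21 FPKM in lung, 2.30-fold higher. Atr, the kinase that answers stalled replication, had the lowest ratio, with 5.95 FPKM in spleen and 1.34 FPKM in lung, 4.44-fold lower. The other lower genes, named here after their values were seen, were the kinase Atm at 5.06 and 2.05 FPKM, the phosphatase Ppm1d, a p53 target that switches the response off, at 15.6 and 4.30 FPKM, the acetyltransferase Ep300 at 12.95 and 5.76 FPKM, and the kinase Chek1, which at 0.393 and 0.187 FPKM was near the limit of detection. Mdm4, the partner of Mdm2, was at 27.5 FPKM in spleen and 16.8 FPKM in lung. The median transcript of this list measured 3881 nt, against 1816.5 nt for the members, and long transcripts had a lower median ratio among all genes. The part of length in the ratios of this list was not tested. Of the relatives of p53, Trp63 was listed at 0 in both libraries, and Trp73 had 0.0424 FPKM in spleen and was listed at 0 in lung.

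Of 9 other targets that arrest the cell cycle, 1 was higher, 2 were lower and 6 lay between. Plk3, a stress kinase, was at 23.9 FPKM in spleen and 63.7 FPKM in lung, 2.66-fold higher. Sfn, which encodes 14-3-3 sigma, was at 8.93 and 1.94 FPKM, 4.61-fold lower in lung. Psrc1, the other lower gene, had 0.378 FPKM in spleen and was listed at 0 in lung, and with about 5.79 splenic reads the 95% counting interval of its ratio reached up to 0.748, above 1/2. The antiproliferative Btg2 was at 182 and 259 FPKM, Gadd45a, a damage sensor, at 11.2 and 20.9 FPKM, and Zmat3, an RNA-binding protein, at 1.38 and 0.976 FPKM, all 3 within 2-fold.

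Of 11 other apoptotic targets, 3 were higher, 1 was lower and 7 lay between. Pmaip1 encodes Noxa, a BH3-only protein like Puma, and had 20.98 FPKM in spleen and 72.8 FPKM in lung. Its ratio was 3.47 (95% counting interval 3.16 to 3.82), opposite in direction to the ratio of 0.344 for Bbc3. Dram1, a gene of autophagy, was 2.24-fold higher and the decoy receptor Tnfrsf23 3.36-fold higher. Aen, a nuclease, was at 17.5 and 6.09 FPKM, 2.87-fold lower in lung, and the death receptor Fas was at 71.9 and 46.9 FPKM, within 2-fold.

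Of 9 repair targets, 0 were higher, 2 were lower and 7 lay between. The highest ratio was that of the nuclease Ercc5, at 9.95 and 13.7 FPKM. Rrm2b, a ribonucleotide reductase subunit named here after its values were seen, was at 9.26 and 4.58 FPKM. Its level was 2.02-fold lower in lung, close to the threshold.

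Of 12 metabolic and stress targets, 3 were higher, 0 were lower and 9 lay between. Ak1, an adenylate kinase, was at 0.0530 FPKM in spleen, about 1.02 reads, and 1.83 FPKM in lung, so the 95% counting interval of its ratio, 18.3 with the floor, ran from 5.97 to 1426. Gpx1, a glutathione peroxidase, was at 376 and 865 FPKM, and Rps27l, a paralog of the ribosomal gene Rps27 with which it may share reads, at 211 and 459 FPKM. Tigar, a phosphatase of sugar metabolism, had the lowest ratio, with 3.42 and 1.97 FPKM. Sesn1, the relative of Sesn2, was at 79.9 FPKM in spleen and 49.7 FPKM in lung, 1.61-fold lower, while Sesn2 was 2.64-fold higher. Ddit4, a further inhibitor of mTORC1, was at 3.46 and 3.45 FPKM.

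Of 4 secreted targets, 2 were higher and 2 were close to 0 in both libraries. Thbs1, a matrix protein that activates TGF-beta, had 1.0 FPKM in spleen and 11.6 FPKM in lung, 11.6-fold higher. It is also made by macrophages, fibroblasts and endothelium.

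**Figure D5:**
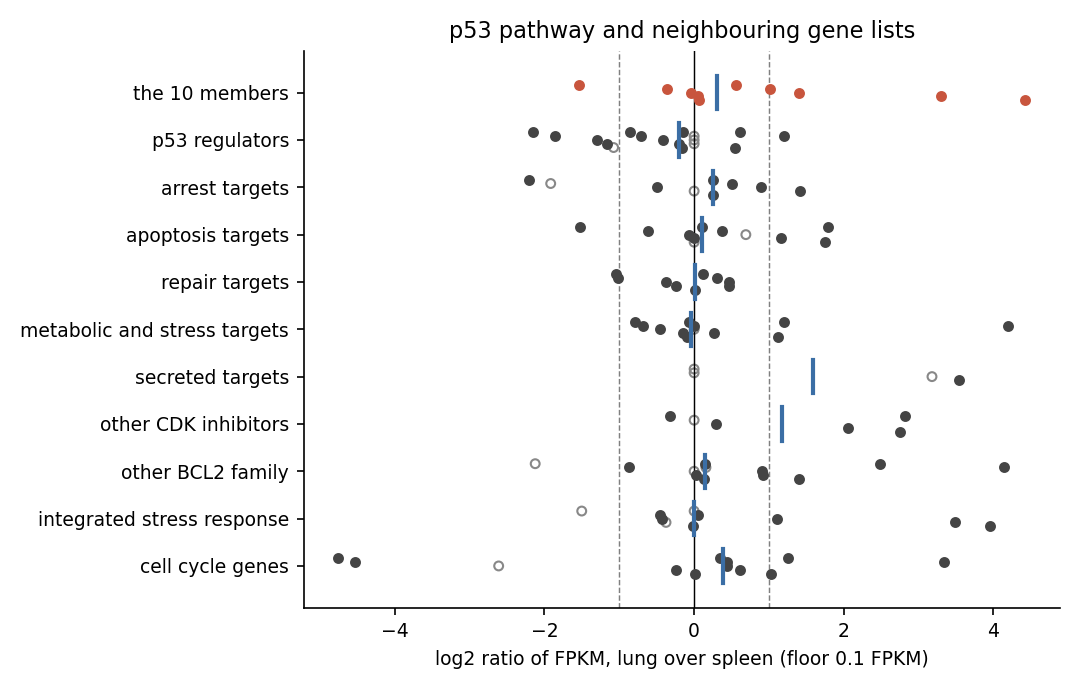
Log2 ratio of lung to spleen for every gene of the other pathway lists and the comparison lists, where filled points reached 1 FPKM in either library, open points did not, and a blue bar marks the list's median. Every list has points on both sides of 0 or at 0. The regulators lie mostly under 0, with 11 of 17 below 0, of which 5 were counted as lower. The median over all genes that reached 1 FPKM is 0.031.

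Families that share a function with Cdkn1a, Bax and Bbc3 were set beside them. Of 6 other inhibitors of cyclin-dependent kinases, 3 were higher and 3 lay between, where 11.0% of all symbols were higher. When only the 5 that reached 1 FPKM were counted, 3 were higher, against 17.8% of all such genes. Cdkn2b was at 0.570 FPKM in spleen and 4.02 FPKM in lung, 7.05-fold higher, Cdkn2c at 2.07 and 13.9 FPKM, 6.73-fold higher, and Cdkn1c at 1.37 and 5.66 FPKM, 4.15-fold higher. Cdkn1b, which encodes p27 of the same Cip/Kip family as p21, was at 14.6 and 11.7 FPKM, the lowest ratio of the list, and Cdkn2a was at 0 in both. Cdkn1a had a larger ratio than any of these 6 and, in lung, was at a higher level than all of them but Cdkn2d at 108 FPKM. Of 12 other genes of the Bcl2 family, 3 were higher, 1 was lower and 8 lay between. The shares of all symbols were 11.0% higher and 11.7% lower. When only the 9 Bcl2 family genes that reached 1 FPKM were counted, 3 were higher and 0 lower. The shares of all such genes were 17.8% and 15.5%. The highest ratio was that of Bok, whose splenic value of 0.158 FPKM was about 2.06 reads and whose counting interval ran from 4.69 to 154, and the lowest among those that reached 1 FPKM was that of the protective Bcl2, at 103 FPKM in spleen and 56.4 FPKM in lung.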

How the data were processed

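Bulk RNA-seq of GFP+CD4+ cells was analysed, with 1 pooled library per tissue and groups taken from the labels. Full-length cDNA (SMART-Seq HT) was sequenced as 75-base single-end reads. Per the labels and methods, the authors mapped reads to mm10 with TopHat2 2.1.1, Bowtie2 2.2.8 and SAMtools 0.1.18 and deposited FPKM from Cuffdiff 2.2.1, while the annotation, the Cuffdiff options and any scaling between libraries are not given in the sources used here.

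Ratios of lung to spleen were taken after a floor of 0.1 FPKM. No test was run, since 1 library per tissue leaves no replicate error. Reads were estimated from GENCODE M21 transcript lengths (GRCm38, matched for 94.5% of symbols) with fragments of mean 200, SD 80 and at least 75 bases. Among low genes, 73.0% of values in spleen and 75.1% in lung came within 0.1 of whole reads. Intervals are exact Poisson for a level and Clopper-Pearson for a ratio. Genes named by rule were the 10 members, the highest and lowest ratio of each list among genes that reached 1 FPKM, and 10 further pathway genes and 3 label checks set by name. Other single list genes and markers given here lay outside this rule and were named with their values known. The members and lists were chosen with earlier results of these data known. Single values of some list genes are not reported here. Cop1 was matched through its synonym Rfwd2. The steps were tested on simulated data. The software was scipy 1.17.1, pandas 2.3.3, numpy 2.4.6 and matplotlib 3.10.9 under Python 3.11.15.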

Additional observations from a re-analysis of the deposited data

How the results depend on the processing

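Ratios were recomputed with a floor of 0.01 or 1 FPKM, a pseudocount of 0.1 or 1 FPKM, TPM, a median ratio of 1, equal upper quartiles, at least 3 estimated reads, folds of 1.5 and 4 and, chosen after seeing the data, rescaling on 6 T cell genes. The floors and the minimum of 3 reads cannot move a gene whose levels all lie above them. A median ratio of 1, equal upper quartiles and the T cell genes moved the median log2 ratio of all genes by -0.016, -0.18 and 0.23. With TPM, 2 members and 5 other pathway genes were higher, 15 other pathway genes were lower, 0 members passed 20-fold, and the median of the members was -0.12, below 0 in place of above it. With equal upper quartiles 0 members passed 20-fold and the median was 0.13. With a pseudocount of 1 FPKM, 0 members passed 20-fold and 5 other pathway genes were lower. Rescaling on T cell genes gave a median of 0.54 and 6 lower pathway genes. A fold of 4 left 2 members higher and 0 lower, and 3 other pathway genes higher and 2 lower. Without Cdkn1a the median was 0.063. The median would be the same without any other single member whose ratio was above it, so this last value says nothing particular to Cdkn1a. The other changes came with a change of scale, pseudocount or threshold. Of the values for single genes, 294 kept their value or stayed within their counting interval and 75 did not, among them 1 value of Trp63, which has no interval, and 0 were called and changed sign. No paired analysis was possible because each tissue has 1 library. Depth limits Gdf15, Phlda3, Bbc3 and splenic Cdkn1a, each of which rests on fewer than 100 reads in at least 1 library.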

Other observations

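Genes of the integrated stress response, a pathway that controls Sesn2 and Gdf15 independently of p53, were described as a further list. Of 10 genes, 3 were higher in the lung library, 1 was lower and 6 lay between. The shares of all symbols were 11.0% higher and 11.7% lower. When only the 7 list genes that reached 1 FPKM were counted, 3 were higher and 0 lower. The shares of all such genes were 17.8% and 15.5%. Atf3, a transcription factor induced by many stresses, was at 5.67 FPKM in spleen and 87.7 FPKM in lung, 15.4-fold higher (95% counting interval 12.7 to 19.1). Nupr1 was at 2.31 and 25.8 FPKM and Ddit3, which encodes Chop, at 35.1 and 75.7 FPKM. Atf4, the central factor of the pathway, was at 88.1 and 90.9 FPKM, and Ppp1r15a, which ends the response, had the lowest ratio among genes that reached 1 FPKM, at 336 and 244 FPKM.

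Of 12 genes of cell division that p21 is known to lower, 3 were higher in lung, 3 were lower and 6 lay between. The shares of all symbols were 11.0% higher and 11.7% lower. When only the 11 list genes that reached 1 FPKM were counted, 3 were higher and 2 lower. The shares of all such genes were 17.8% and 15.5%. Mki67, a marker of dividing cells, was at 2.30 and 3.11 FPKM, Birc5 at 10.7 and 25.6 FPKM and Ccnb1 at 5.40 and 11.0 FPKM. Bub1 was at 0.0701 and 1.008 FPKM, of which the splenic value was about 2.34 reads. Plk1 was at 2.71 FPKM in spleen and listed at 0 in lung, and the 95% counting interval of its lung-to-spleen ratio reached up to 0.060. Aurkb was at 2.32 and 0.0486 FPKM. These genes had no common direction, and their relation to the level of Cdkn1a was not tested.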
